A study of Sus scrofa with 6 samples.

Results

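The transcripts described here encode the proteins of the cytosolic ribosome. They were chosen by gene name alone: every row of the deposited abundance table whose name is that of a ribosomal protein of the large subunit (RPL), the small subunit (RPS) or the ribosomal stalk (RPLP0, RPLP1, RPLP2), together with RPSA, was taken. The rule gave 46 of 17678 genes, 20 coding for proteins of the 40S subunit and 26 for proteins of the 60S subunit. A further 15 ribosomal protein genes stand in the table without a name and were recognised only through their identifiers, so they are reported separately.

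The ribosome translates messenger RNA, and each of its subunits is a core of ribosomal RNA covered by proteins that are, with few exceptions, present in a single copy per particle. In growing cells the messages for these proteins are among the most abundant, and many of them begin with a 5′ terminal oligopyrimidine (TOP) motif, a cytosine followed by an unbroken stretch of cytosines and thymines through which the mTOR pathway and LARP1 set their translation and stability. A fully grown oocyte carries a large store of finished ribosomes and maternal mRNAs, and the early embryo lives on this store until its own genome is activated.

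Porcine embryos were made by parthenogenetic activation of mature (MII) oocytes from slaughterhouse ovaries, so they had no paternal genome. Before activation the oocytes received negative control siRNA (NC) or siRNAs designed against 3 sites of SIN3A, the scaffold of the SIN3 histone deacetylase complex (KD). Embryos at the 2-cell stage were collected 32 h after activation, with 3 replicates per group and 20 embryos pooled in each. Poly(A)-selected mRNA was sequenced and assigned to the genes of the pig genome Sscrofa11.1. The values are normalized abundances, read estimates scaled between libraries by the authors, and carry no fixed unit.

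SIN3A itself, the target of the siRNAs, stood at 37360, 33960 and 32400 in the NC libraries (replicates 1, 2 and 3, the order used throughout) and at 3271, 1079 and 4173 in the KD libraries. All KD values lay far below all NC values (log2 fold change -3.81, standard error (SE) 0.31, limma adjusted p = 8.4e-06). The libraries held an estimated 7800000 to 15700000 reads. The oocyte and early embryo markers, among them ZP3 and GDF9, summed to 67498 to 82741 per library. The 13 cumulus or granulosa cell markers that the table lists summed to 819 to 989, of which VCAN alone gave 735 to 925. Of the rest, AMH, LUM and TNFAIP6 were at most 1.63 in any library. PTX3 and PTGS2 were at 0 in all KD libraries and between 0.762 and 3.13 in NC. CYP11A1, FOXL2, CYP19A1 and STAR were highest in KD replicate 3, at 14.2, 13.1, 10.7 and 23.4. COL1A2 was highest in NC replicate 2 (53.5), INHBA in NC replicate 1 (17.7) and GJA1 in KD replicate 2 (8.07).

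Ribosomal protein genes differed in how their annotated messages begin. The sequences below are shown because the TOP motif is the one regulatory element by which this family is best known, and because the members that carry it included both the most and some of the least abundant ones. Each is a 30-base window of the gene's own strand, 5′ to 3′, from the RefSeq annotation and genome of Sscrofa11.1, with the annotated first base of the longest mRNA at position 11. Capitals mark the pyrimidine run that covers this base, from its first cytosine within the 5 bases before it.
RPLP0 (chr14:40223924-40223953, minus strand): tacagCCCTCCTCTCgccaggcgtcctcgt
RPS20 (chr4:75762199-75762228, plus strand): tcacgCCTTCCTCTTTgaagaagacgcagc
RPL7 (chr4:62602420-62602449, plus strand): gcgctaaCTTCCTCTTTCCCggctggaacc
RPL10 (chrX:124927239-124927268, plus strand): gtgggagcgCCTCTTTTCCTTCggcgcggt
RPL23 (chr12:23279955-23279984, plus strand): ttcttaCTTCCTTTTCgtccttgtcgggcc
RPL26 (chr12:53553431-53553460, minus strand): tggttCTCTTCCCTTTTgcggccatcgctg
RPL38 (chr12:6889875-6889904, minus strand): gcggaagtCCCTTCCTTTTCCgttctgctt
RPL9 (chr8:30699170-30699199, minus strand): aagacgCTCTCTCTTTgccgcatctactgc
RPLP2 (chr2:507881-507910, plus strand): gcgccggcgtCTTCCTTTCTgtccctgacg
RPS26 (chr5:21431646-21431675, plus strand): tggccaCTTCCTCTCTCgcgtcttcgcttc
The next 3 windows belong to abundant members without a cytosine followed by such a run at the annotated start.
RPS28 (chr2:70954843-70954872, minus strand): cgctaggactgctgggaacatggcgtatgg
RPS3 (chr9:9616428-9616457, plus strand): ccgtgctattttccagagcggcttcgccac
RPL5 (chr4:124367593-124367622, minus strand): tgctgggcctgctgctctgtggcaagccgc

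A cytosine at the annotated start followed by at least 4 bases that are each C or T was found in 13 of the 46 members (28.3%). Over all 13370 genes of the table with a RefSeq start the share was 3.2%. When the run was allowed to begin up to 5 bases to either side of the start, 20 members (43.5%) and 18.7% of all genes had one. The remaining members carrying it exactly at the start were RPL32, RPL6 and RPS3A. Annotated starts can differ from those used in the embryo, and a window without the motif says only that these letters are absent from it.

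Among the members, the measured transcript levels spanned a wide range. The mRNA was poly(A)-selected and tail lengths were not measured, so these levels cannot separate message abundance from tail length. Per kilobase of the longest RefSeq mRNA, the mean NC level ran from 5.47 for RPL10L to 2019 for RPLP0, a ratio of 369, with a median of 60.3. The annotated length was used whole, without allowance for fragment length, so levels of short and long mRNAs compare only roughly. The median over all 14085 genes with a RefSeq mRNA was 22.9 on the same scale, that of the 61 mitochondrial ribosomal protein genes was 61.9, and that of the 40 translation initiation factors was 123. Thus the medians of the 46 named cytosolic and of the mitochondrial ribosomal protein messages lay close together. The 15 cytosolic genes recognised by identifier only had a higher median, 103. By length-corrected level the 46 members made up 0.381% ± 0.0169 (SD, n = 3) of the sum over all genes in NC and 0.373% ± 0.0488 (SD, n = 3) in KD libraries, less than the 40 initiation factors (0.772% ± 0.0154 in NC). The 15 genes recognised by identifier made up a further 0.104% ± 0.00872 (SD, n = 3) in NC.

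RPLP0, the protein that anchors the stalk of the large subunit, was the most abundant member, with normalized values of 2238, 2344 and 2074 in NC and 2558, 2371 and 1851 in KD libraries. Its NC level of 2019 ± 124 (SD, n = 3) per kilobase exceeded that of 98.6% of all genes. RPS20, a protein of the head of the small subunit, followed with 1367 ± 70.4 per kilobase, from values of 714, 659 and 727 in NC and 866, 746 and 565 in KD libraries. On this scale both the gap from RPLP0 to RPS20 and that from RPS20 to the next member were wider than the replicate spread. That spread does not cover an error in the lengths, which were 1099 bases for RPLP0, 512 for RPS20 and 423 for RPS28. Per kilobase of coding sequence the NC means were 2318 for RPLP0, 2060 for RPS28 and 1945 for RPS20. The order of RPS20 and RPS28 thus depended on the length used.

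RPS28, which lies near the mRNA exit, and RPS3, which lines the mRNA entry channel, came next with 1023 ± 55.5 and 1021 ± 191 per kilobase (SD, n = 3 each), and their order cannot be told from these replicates. RPS28 had values of 452, 406 and 440 in NC and 509, 375 and 360 in KD, and RPS3 had 1652, 1183 and 1245 in NC and 1773, 1314 and 1019 in KD. RPL5, which binds 5S ribosomal RNA and with it can inhibit MDM2, stood at 890 ± 87.8 per kilobase, within the spread of RPS3. Its values were 979, 803 and 901 in NC and 992, 779 and 815 in KD libraries. RPLP0, RPS3, RPL5, RPS20 and RPS28 together held between 57.6% and 61.4% of the summed values of all 46 members in every library.

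**Figure D1:**
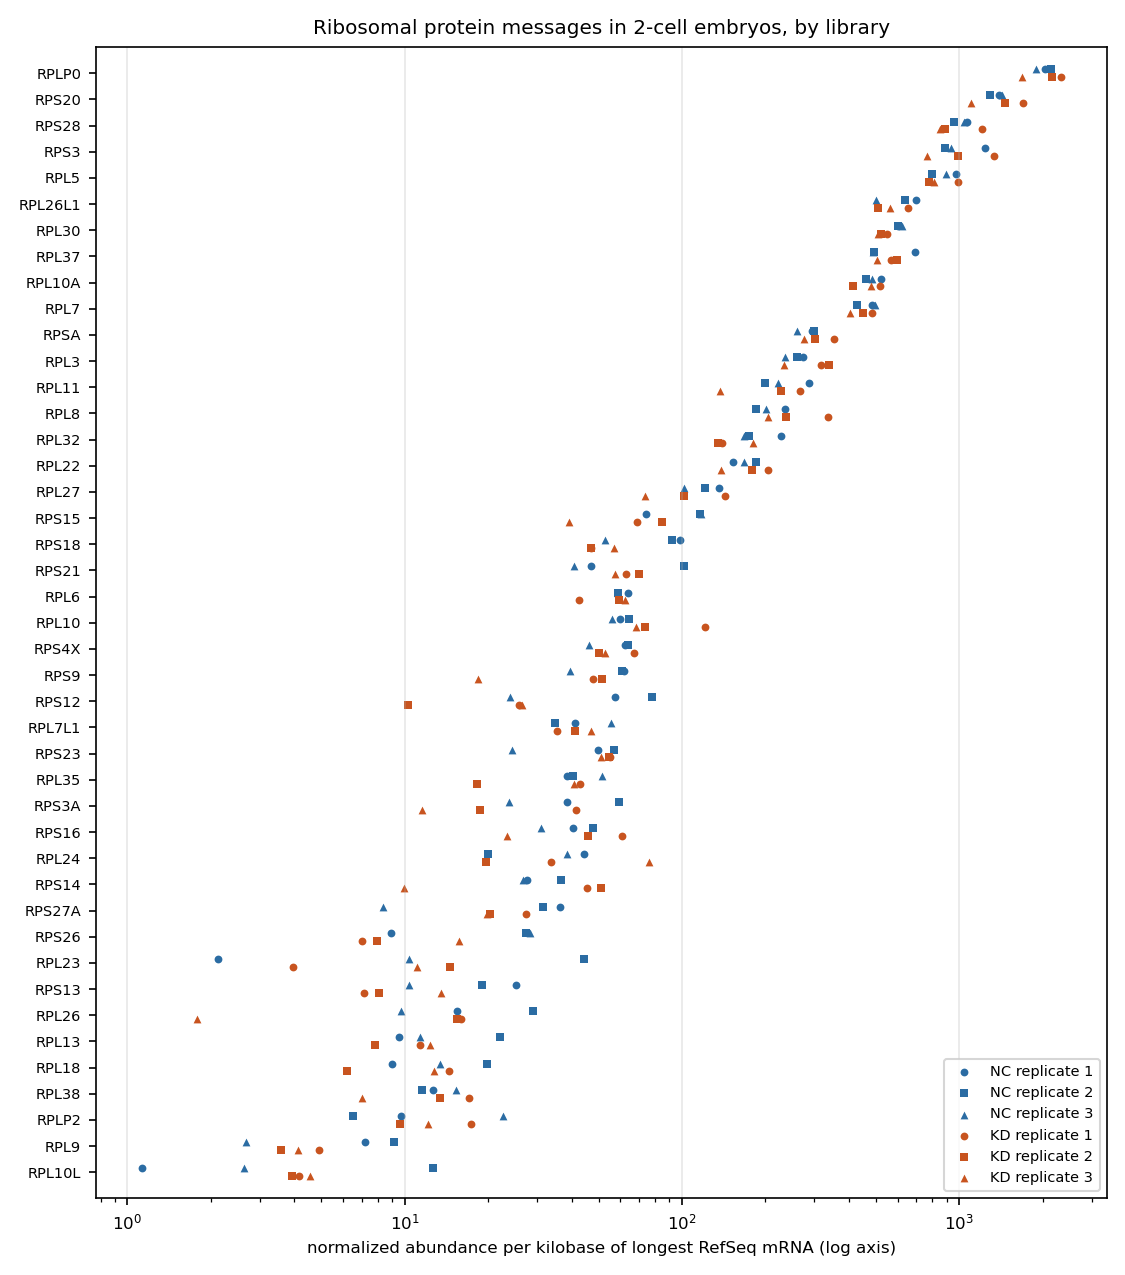
Normalized abundance per kilobase of the longest RefSeq mRNA (log axis) for 43 of the 46 named cytosolic ribosomal protein genes, with 1 point per library (blue NC, orange KD, the shape gives the replicate) and genes ordered by the NC mean. RPLP0 lies at about 2019 and RPL10L at 5.47, the points of abundant members lie close together, and those of the least abundant ones are spread over several-fold.

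At the other end, 9 members had a mean value under 10 over the 6 libraries and were not tested for a difference: RPS26, RPL23, RPS13, RPL26, RPL18, RPL38, RPLP2, RPL9 and RPL10L. RPL38, a protein of the large subunit known for its part in the translation of Hox messages, had 5.34, 4.85 and 6.45 in NC and 7.21, 5.67 and 2.95 in KD libraries. RPL23 had 1.04, 22.0 and 5.10 in NC and 1.95, 7.21 and 5.47 in KD libraries, or an estimated 1 to 15 reads. At such counts neither a level nor a group difference can be read with precision.

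Low NC levels per kilobase among the tested members were those of RPL13 (14.3 ± 6.80), RPS27A (25.3 ± 14.9), RPS14 (30.4 ± 5.47) and RPL24 (34.3 ± 12.7; SD, n = 3 each). Each step between neighbours in this order was smaller than the sum of their SDs. RPS27A is made as a fusion with ubiquitin, and RPS14 is the gene whose loss marks the 5q- syndrome. RPS27A had 22.0, 19.1 and 5.08 in NC and 16.6, 12.3 and 12.0 in KD libraries, and RPS14 had 17.96, 23.8 and 17.3 in NC and 29.4, 33.1 and 6.44 in KD libraries. In each of these genes 1 library lay far below the other 5, NC replicate 3 for RPS27A and KD replicate 3 for RPS14.

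Proteins that stand side by side in the ribosome had very different measured message levels. The stalk is built of RPLP0 with dimers of RPLP1 and RPLP2, the proteins that recruit the elongation factors. RPLP2 had values of only 4.32, 2.92 and 10.1 in NC and 7.75, 4.31 and 5.42 in KD libraries, or 12.9 ± 8.51 per kilobase in NC, against 2019 for RPLP0. The values of RPLP2 stand for an estimated 2 to 12 reads. RPLP1, recognised by its identifier only, had 128, 111 and 115 in NC and 153, 105 and 71.3 in KD libraries, or 222 ± 16.9 per kilobase in NC. The 5S particle was less uneven, with 890 ± 87.8 per kilobase for RPL5 and 236 ± 45.4 for its partner RPL11. RPL11 had values of 164, 114 and 127 in NC and 153, 130 and 78.5 in KD libraries. The 40S members reached from 18.2 to 1367 per kilobase with a median of 55.7, and the 60S members from 5.47 to 2019 with a median of 89.9.

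Members with a TOP motif exactly at the annotated start had a median NC level of 40.4 per kilobase (n = 13), and the other 33 members a median of 80.9. Of the 9 members with a mean value under 10, 6 had the motif at the start (66.7%), namely RPL23, RPL26, RPL38, RPL9, RPLP2 and RPS26, whose windows are printed above. Of the 37 members with a mean of at least 10 it was present in 7 (18.9%). RPLP0 and RPS20 were among these 7. Of the 17 members with a mean of at least 100, 4 had the motif at the start (23.5%), against 28.3% of all 46 members. This split was seen after the values were known and is given as a description without a test. The classes rest on the annotated start of the longest mRNA, which may not be the one used in the embryo. For RPS3, counted without the motif, the window begins at 9616428, inside a gene that begins at 9612939.

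**Figure D2:**
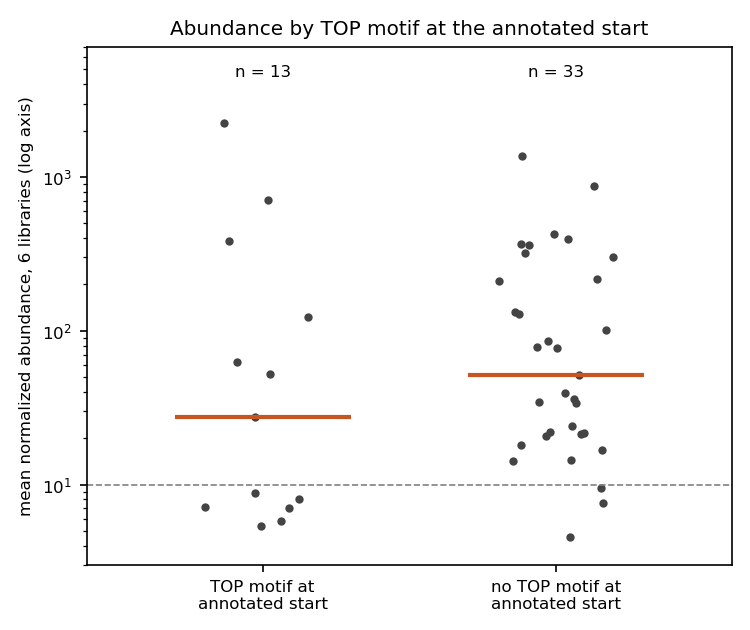
Mean normalized abundance over the 6 libraries (log axis) of members with (n = 13) and without (n = 33) a TOP motif exactly at the annotated start of the longest RefSeq mRNA, with 1 point per gene, the median as a bar and the limit of 10 for testing as a dashed line. The medians are 27.7 and 51.3, and 6 of the 9 members under the dashed line carry the motif.

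Many ribosomal protein genes have processed copies in the genome that can share their reads. A copy without introns, with at least 90% identity over at least 80% of the coding sequence, was found outside the gene for 24 of the 46 members. RPS23 had 7 such copies, RPL10A, RPL32 and RPSA had 4 each, and RPLP0, RPS3, RPL5 and RPS28 had 0. In the stalk, RPLP2 had 1, and RPLP1, which is outside the 46 members, had 10 with identities of up to 98.3%. Members with a copy had a median NC level of 55.2 per kilobase and members without one of 81.5. How the reads of copies were divided was set by the authors' transcript assignment, so the levels of the 24 members and of RPLP1 are uncertain to that extent.

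Within 3 pairs of paralogues 1 gene prevailed. RPL26L1 had values of 466, 426 and 335 in NC and 435, 341 and 375 in KD libraries, whereas RPL26, whose protein lies beside the exit tunnel, had 9.43, 17.6 and 5.91 in NC and 9.75, 9.42 and 1.09 in KD libraries. Per kilobase, RPL26L1 exceeded RPL26 at least 22.0 times in each of the 6 libraries, and by 34.0 times when the NC means were compared, although the values of RPL26 stand for only 1 to 13 estimated reads. The coding sequences of this pair are 85.0% identical over 434 aligned bases. RPL26 begins with a TOP motif (above), while the run in RPL26L1 does not cover the annotated start.

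RPL7 exceeded RPL7L1, a relative of RPL7 that takes part in the assembly of the large subunit, between 8.63 and 13.7 times per kilobase. The size of this ratio depends on the annotated mRNA lengths, 835 bases for RPL7 and 2387 for RPL7L1. Per kilobase of coding sequence the NC means were closer, 520 for RPL7 and 140 for RPL7L1. Here the values were 404, 356 and 415 in NC and 404, 377 and 338 in KD for RPL7, and 98.0, 83.3 and 132 in NC and 84.6, 98.4 and 112 in KD for RPL7L1. RPL10L, a gene with 1 exon that is best known from the male germ line, had values of 1.06, 11.9 and 2.47 in NC and 3.92, 3.68 and 4.29 in KD libraries. RPL10 exceeded it between 5.11 and 53.3 times, a range set by the few reads of RPL10L. In each of the 3 ratios the KD and NC libraries overlapped.

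The comparison of KD with NC embryos asks whether loss of SIN3A altered these messages. Of the 46 members, 37 (18 of the 40S and 19 of the 60S subunit) had a mean of at least 10 and were tested on log2(value + 1) within the fit of all 11986 such genes. With limma, 0 members were higher and 0 lower at an adjusted p below 0.05, while 0.159% of all tested genes were called. At an unadjusted p below 0.05 there was 1 member, RPS12, against 4.61% of all tested genes. In bulk embryos, a loss of cells and a loss of RNA per cell cannot be told apart, and a change in the total mRNA of an embryo would be removed by the normalization.

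The fold changes of the tested members centred near 0, with 14 above and 23 below it. The median log2 fold change was -0.06, from -1.22 for RPS12 to 0.49 for RPL10, and the median over all tested genes was 0.0026. The 40S members had a median of -0.03 and the 60S members one of -0.07. The precision differed with abundance: for all 17 members with a mean of at least 100 the 95% confidence interval lay between -1 and 1 on the log2 scale, but it did so for only 8 of the 20 members with a mean between 10 and 100. For the other 12 of these a change of that size is not excluded by the interval. The median over members stayed negative when any library but KD replicate 3 was left out, from -0.16 (without KD replicate 1) to -0.03, and was 0.03 without KD replicate 3.

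**Figure D3:**
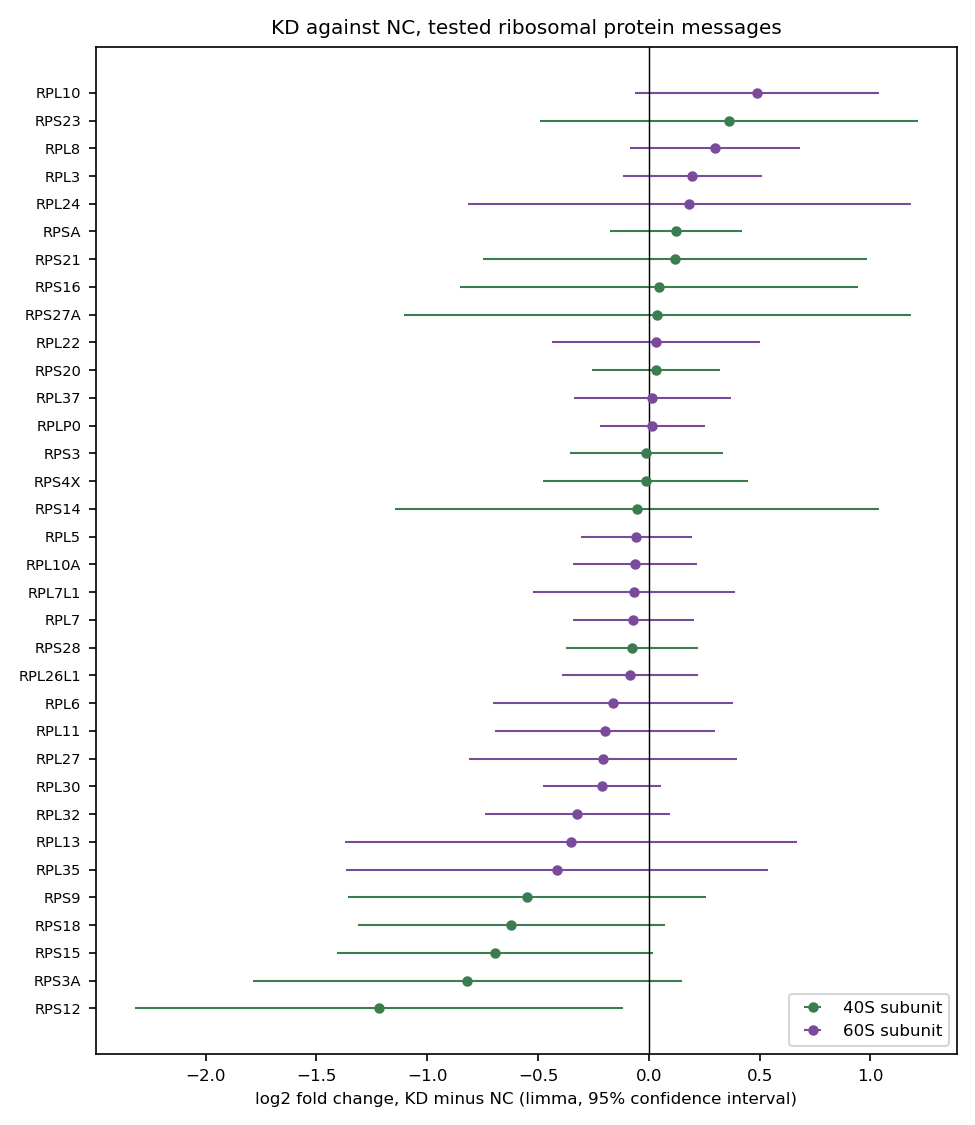
Log2 fold change of KD against NC (points) with its 95% confidence interval from limma (bars) for 34 of the 37 tested members, ordered by fold change and coloured by subunit. The interval of RPS12 alone (-2.32 to -0.12) excludes 0 without adjustment, and the intervals are narrowest for abundant members such as RPLP0.

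RPL10, which joins the large subunit in the last step of its maturation, was the only member with every KD value above every NC value (4.85% of all tested genes behaved so). Its values were 50.9, 54.9 and 47.4 in NC and 103, 62.4 and 57.9 in KD libraries. KD replicate 1 stood apart from the other 5 libraries, and without it the log2 fold change of 0.49 (SE 0.26, 95% confidence interval -0.06 to 1.04, limma adjusted p = 0.997) became 0.23. The exact two-sided permutation test gave p = 0.1, the smallest that 3 replicates against 3 allow. RPL10 lies on chromosome X from 124927249 to 124929791.

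RPL30, a small protein of the large subunit, was the only member with every KD value below every NC value, which held for 4.94% of all tested genes. It had 339, 338 and 351 in NC and 308, 293 and 286 in KD libraries, so both groups were tight and the gap between them was narrow. The means were 343 ± 7.12 and 296 ± 11.2 (SD, n = 3 each), for a log2 fold change of -0.21 (SE 0.13, limma adjusted p = 0.997; exact permutation p = 0.1). RPL30 kept the same direction without any one library, with log2 fold changes from -0.24 to -0.19, but after the correction for GC content and length it was -0.11. It lies on chromosome 4 from 38702220 to 38720420.

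RPS12, a protein of the beak of the small subunit, had the most negative fold change. Its values were 28.3, 38.2 and 11.8 in NC and 12.7, 5.07 and 13.1 in KD libraries, and NC replicate 3 lay among the KD values. The means were 26.1 ± 13.3 and 10.3 ± 4.51 (SD, n = 3 each), and their log2 fold change was -1.22 (SE 0.52, unadjusted p = 0.032, limma adjusted p = 0.997; exact permutation p = 0.3). These values stand for an estimated 7 to 27 reads per library. The fold change lay between -1.69 and -0.82 when 1 library was left out, and without NC replicate 2 no member, RPS12 included, had an unadjusted p below 0.05.

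The other members with the smallest p among those lower in KD were also of the 40S subunit and of low abundance. RPS15, which sits in the head of the subunit near the decoding centre, had 35.3, 55.2 and 55.5 in NC and 32.7, 40.3 and 18.6 in KD libraries (log2 fold change -0.69, SE 0.34). RPS18, also a protein of the head, had 51.1, 47.9 and 27.6 in NC and 24.5, 24.5 and 29.7 in KD libraries (log2 fold change -0.62, SE 0.33). RPS3A had 33.0, 50.9 and 20.4 in NC and 35.7, 16.1 and 9.94 in KD libraries (log2 fold change -0.82, SE 0.46). In all 3 the groups overlapped, and the limma adjusted p was 0.997. Single libraries moved these values: without KD replicate 3 the log2 fold change was -0.38 for RPS15 and -0.42 for RPS3A, and for RPS3A it was -1.29 without KD replicate 1 and -0.51 without NC replicate 2.

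Among the members higher in KD, RPL8 and RPL3, both close to the peptidyl transferase centre, had small positive differences. RPL8 had 219, 173 and 187 in NC and 313, 221 and 190 in KD libraries (log2 fold change 0.30, 95% confidence interval -0.09 to 0.68). RPL3 had 361, 343 and 312 in NC and 420, 449 and 309 in KD libraries (log2 fold change 0.20, 95% confidence interval -0.12 to 0.51). RPSA, whose protein is also known as the laminin receptor, had 297, 303 and 262 in NC and 358, 305 and 279 in KD libraries (log2 fold change 0.12, 95% confidence interval -0.18 to 0.42). For RPS23, a protein of the decoding site, the interval ran from -0.49 to 1.21. The groups overlapped in all 4 genes. Leaving out 1 library gave values between 0.0955 and 0.45 on the log2 scale for RPL8 (lowest without KD replicate 1), 0.0902 and 0.36 for RPL3 (lowest without KD replicate 2), 0.024 and 0.20 for RPSA (lowest without KD replicate 1) and 0.0082 and 0.58 for RPS23 (lowest without NC replicate 3).

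For the 5 most abundant members the intervals were narrow. The log2 fold change was 0.02 for RPLP0 (95% confidence interval -0.22 to 0.25), 0.03 for RPS20 (-0.26 to 0.32), -0.08 for RPS28 (-0.38 to 0.22), -0.01 for RPS3 (-0.35 to 0.33) and -0.06 for RPL5 (-0.31 to 0.19). Members with a TOP motif at the start had a median log2 fold change of -0.07 (n = 7 tested) and those without one of -0.06 (n = 30). With at least 1 intronless copy the median was -0.06 (n = 19), and without a copy it was -0.06 (n = 18).

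In contrast to the group difference, the libraries themselves differed in these messages. For each library the median over the tested members of log2(value + 1) minus the gene's mean over the 6 libraries was taken. It was 0.10, 0.09 and -0.12 in NC and 0.20, 0.03 and -0.16 in KD libraries. Over all tested genes it stayed between 0.0036 and 0.014, where the scaling between libraries by itself brings it near 0. As deposited, the members' median was highest in replicate 1 and lowest in replicate 3 within each group. Over all tested genes, same-numbered NC and KD samples correlated at 0.109, 0.111 and 0.0872 after subtraction of group means. The main fit did not pair them, and the part of replicate number in the shifts was not tested. KD replicate 3 held the lowest of the 6 values for 18 of the 37 members (48.6%), against 18.3% of all tested genes. KD replicate 1 held the highest for 12 of them and the lowest for 1 (15.8% and 14.2% of all tested genes). NC replicate 1 held the highest for 10 of the 37, and for 22% of all tested genes. After correction for GC content and transcript length the members' medians were 0.04, 0.05 and -0.11 in NC and 0.16, 0.06 and -0.09 in KD libraries, so KD replicate 1 was highest on both scales, while the lowest library was KD replicate 3 as deposited and NC replicate 3 after correction.

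The medians ranged more widely in the small subunit, a difference that was not tested. The 18 tested 40S members had medians of 0.12, 0.34 and -0.24 in NC and 0.25, 0.09 and -0.36 in KD libraries, and the 19 tested 60S members had 0.09, -0.06 and -0.0026 in NC and 0.15, -0.02 and -0.10 in KD. The 40S members were also less abundant (median NC value 38.2 against 66.2), and the libraries differed by abundance as well: the 20 members with a mean between 10 and 100 had medians of 0.11, 0.28 and -0.19 in NC and 0.21, 0.05 and -0.16 in KD, and the 17 with a mean of at least 100 had 0.10, -0.08 and -0.0026 in NC and 0.18, -0.02 and -0.16 in KD. After correction for GC content and transcript length the 40S medians were 0.08, 0.27 and -0.21 in NC and 0.21, 0.12 and -0.29 in KD. The 59 tested mitochondrial ribosomal protein genes had medians between -0.01 and 0.04 in all libraries.

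**Figure D4:**
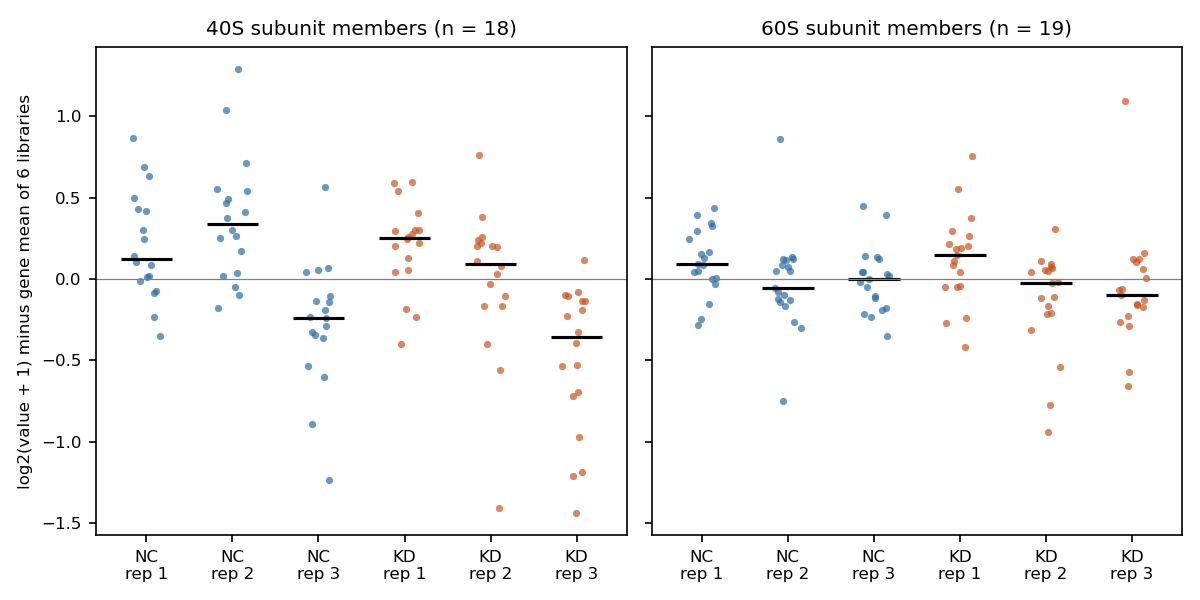
Deviation of each tested member from its own mean over the 6 libraries, on the log2(value + 1) scale, for the 40S (n = 18) and the 60S subunit (n = 19), with 1 point per gene and the median of each library as a bar. The 40S medians are lowest in replicate 3 of NC (-0.24) and of KD (-0.36) and highest in NC replicate 2 (0.34), and the 60S medians lie between -0.10 and 0.15.

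Other measures that varied between the same libraries are given beside this. The summed value of the oocyte markers was 75535, 72965 and 68266 in NC and 82741, 80072 and 67498 in KD libraries. KPNA7 alone gave 39720, 40160 and 36120 of this in NC and 46900, 42290 and 33710 in KD libraries. The markers did not share one order, as MOS was highest in KD replicate 3 (2836) and NPM2 in NC replicate 3 (509.8). KD replicate 3 was the lowest library for KPNA7, ZP2 (1070), ZP3 (330), ZP4 (2097), OOEP (364) and FIGLA (4.30). MOS, ZAR1, NPM2, BMP15 and GDF9 had their lowest value in other libraries. The summed cumulus and granulosa markers were 989, 863 and 847 in NC and 940, 819 and 868 in KD. Single cumulus or granulosa markers did not share one order either. CYP11A1, FOXL2, CYP19A1 and STAR were highest in KD replicate 3 (above). VCAN and INHBA were highest in NC replicate 1, COL1A2 in NC replicate 2 and GJA1 in KD replicate 2. The estimated depth was 10900000, 7800000 and 13000000 reads in NC and 11800000, 15700000 and 10200000 reads in KD. The part of any of these in the shifts was not tested. Members are short, with a median length of 637 bases against 3731 for all tested genes with a RefSeq match, and have a similar GC content (51.1% and 50.7%).

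The 15 ribosomal protein genes recognised by identifier only were also tested. With limma, 0 of them were called, 1 had an unadjusted p below 0.05 (4.61% of all tested genes), and the median log2 fold change was -0.17. RPL23A, which sits at the exit tunnel, had 34.4, 62.9 and 23.9 in NC and 18.5, 21.6 and 18.6 in KD libraries, so that all KD values lay below all NC values (log2 fold change -0.90, SE 0.38, unadjusted p = 0.029, limma adjusted p = 0.997; exact permutation p = 0.1). RPL36A also had all KD values lower, with 52.1, 43.4 and 36.5 in NC and 27.5, 29.0 and 30.8 in KD. These were 2 of the 15 genes, where 4.94% of all tested genes had every KD value lower. Both genes have intronless copies, 4 for RPL23A and 3 for RPL36A, with identities of up to 95.5% and 99.4%. RPL4, a lining protein of the exit tunnel, had 61.8, 72.0 and 68.3 in NC and 60.2, 75.3 and 70.9 in KD libraries. The 15 genes had library medians of 0.27, 0.05 and -0.09 in NC and 0.08, -0.07 and -0.20 in KD libraries, highest in NC replicate 1 and lowest in KD replicate 3.

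The summed value of the 46 members was 0.0844% ± 0.00485 (SD, n = 3) of all values in NC and 0.0829% ± 0.0117 (SD, n = 3) in KD libraries. The groups overlapped, with 0.0899%, 0.0821% and 0.0810% in NC and 0.0949%, 0.0824% and 0.0714% in KD libraries. The 63 mitochondrial ribosomal protein genes held 0.124% ± 0.00155 in NC and 0.120% ± 0.00235 in KD (SD, n = 3 each), with 0.125%, 0.123% and 0.126% in NC and 0.122%, 0.119% and 0.117% in KD libraries, so here every KD share was below every NC share. Of the 59 of them that were tested, limma called 0 and gave 2 an unadjusted p below 0.05, against 4.61% of all tested genes. Every KD value lay below every NC value in 6 and above in 2, against 4.94% and 4.85% of all tested genes. The median log2 fold change was -0.06.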

How the data were processed

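Libraries were grouped by the sample labels into 3 NC and 3 KD replicates. The authors assigned reads to Sscrofa11.1 transcripts with Salmon 0.14.1 and normalized the estimates between libraries, per the methods and the processing notes with DESeq2; the deposited table gives this normalized signal per Ensembl gene. No count test was applied, because the deposited values are normalized abundances. In each library 61.3% to 71.8% of the low values lay within 0.05 reads of a multiple of 1 read. The step between low values gave the estimated depth. Precision falls with the value of a gene.

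Genes with a mean of at least 10 were compared with limma 3.58.1 (R 4.3.3) on log2(value + 1), using lmFit and eBayes with a variance trend and Benjamini-Hochberg adjustment over 11986 genes. Fold changes on this scale understate those of low genes. Single genes were also compared by exact two-sided permutation. The fit was tested on simulated data. Members, lists and tests were chosen with earlier results of these data known. The members named with values were the 5 of smallest p in each direction, the 5 highest and 5 lowest tested levels per kilobase, paralogue pairs, and members with well-known roles (stalk, 5S particle, RPSA, RPS27A, RPS3, RPL4, RPL10 and RPL38), besides SIN3A; RPS6, RPS19 and RPL13A were not found by name, and 3 members are not reported here by name. Lengths, positions and windows came from RefSeq annotation release 106 of Sscrofa11.1, the same build, read with pysam 0.24.0; copies were searched with blastn 2.17.0. Python 3.11.15, numpy 2.4.6, pandas 2.3.3 and matplotlib 3.10.9 were used. The study describes its replicates as independent, but whether same-numbered NC and KD samples share a day is not given in the sources used here. The spike-in RNAs named in the protocols and protein sequences were not used here. The alternatives were other pseudocounts, filters and normalizations, no variance trend, a replicate block, a GC and length correction, a list without L-named paralogues, and leaving out each library.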

Additional observations from a re-analysis of the deposited data

How the results depend on the processing

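No member was called by limma under any alternative, and the lowest adjusted p of a named member was 0.706. Of 363 comparisons of 25 named members with an alternative, 328 kept their direction and 35 reversed it. With a pseudocount of 10, RPS14 had a log2 fold change of 0.0377 and RPS27A one of -0.0353, and with quantile normalization RPS4X had 0.0019. After the GC and length correction RPL26L1 had 0.0098, RPL5 0.0269, RPL7 0.0264, RPS3 0.0186 and RPS4X 0.0545, and the median over members was 0.0098. Over the 6 fits that each leave out 1 library, log2 fold changes spanned -0.0904 to 0.184 in RPL22, -0.223 to 0.0158 for RPL26L1, -0.162 to 0.0122 for RPL5, -0.216 to 0.183 for RPS3, -0.163 to 0.0689 for RPS4X, -0.316 to 0.616 for RPL24, -0.447 to 0.651 for RPS14, -0.107 to 0.2 for RPS20, -0.216 to 0.112 for RPL7L1, -0.0809 to 0.152 for RPLP0, -0.569 to 0.39 for RPS27A, -0.396 to 0.0819 for RPL11 and -0.234 to 0.015 for RPS28. The number of members without overlap was 2 with all libraries, 1 at a mean of at least 100 and 1 after the GC and length correction, and 3 to 11 when a library was left out, where fewer samples make non-overlap easier (11 without KD replicate 3, 8 without NC replicate 3, 5 without NC replicate 1, 4 without NC replicate 2, 4 without KD replicate 1). As a share of the members tested in each of these fits this was 7.89% to 28.9%, against 17.5% to 23% of all tested genes, with 28.9% and 23% without KD replicate 3 and 21.6% and 20.1% without NC replicate 3. The number of members at an unadjusted p below 0.05 was 1 with all libraries, 5 without KD replicate 3, 3 without NC replicate 3, 2 without KD replicate 1, 0 without NC replicate 2, 2 after the GC and length correction and 0 at a mean of at least 100. Over all tested genes the share was 4.61% with all libraries, 6.21% without KD replicate 3 and 4.91% without NC replicate 3. It was 4.35% without KD replicate 1 and 4.16% without NC replicate 2. Limited to members with a mean of at least 100, the summed share in NC was 0.0767%. Without the variance trend, SIN3A kept its log2 fold change of -3.81 at an adjusted p of 0.423 from limma. Same-numbered NC and KD samples correlated at 0.109, 0.111 and 0.0872 after subtraction of group means, and each sample correlated best with its own number. With the replicate block 0 members were called and 3 had an unadjusted p below 0.05, with the median unchanged at -0.06. Depth limits the 9 members with a mean under 10 and most of those under 100.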

Other observations

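Genes around the ribosome were described from fixed lists. Of 48 ribosome assembly factors, 40 were found in the table and 39 tested, with 0 called by limma, 1 at an unadjusted p below 0.05 and a median log2 fold change of -0.03. That gene was UBTF, the factor that loads RNA polymerase I on ribosomal DNA. It had values of 1353, 1236 and 1270 in NC and 1609, 1614 and 1455 in KD libraries, so every KD value was higher (log2 fold change 0.28, standard error 0.09, unadjusted p = 0.0097, adjusted p = 0.852 from limma). NOL6 and UTP4, parts of the small subunit processome, had every KD value lower, with log2 fold changes of -0.27 and -0.23 and an adjusted p of 0.997 from limma. These were 2 of 39 factors, where 4.94% of all tested genes had every KD value lower and 4.61% had an unadjusted p below 0.05. The median NC level of the 40 factors was 113 per kilobase, against 60.3 for the cytosolic ribosomal proteins.

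Of 20 other genes known for TOP messages, 12 were found and 11 tested, with 0 called by limma and 1 at an unadjusted p below 0.05. Over all tested genes, 4.61% had such a p and 4.94% had every KD value lower. PABPC1, the cytoplasmic poly(A)-binding protein of somatic cells, had 32.1, 55.6 and 31.2 in NC and 22.7, 17.7 and 19.7 in KD libraries, all KD values lower (log2 fold change -0.91, standard error 0.35, unadjusted p = 0.019, adjusted p = 0.971 from limma). EEF2, the translocation factor, had 1541, 1527 and 1627 in NC and 1700, 1478 and 1388 in KD libraries, with overlap. Of 20 regulators of ribosomal protein messages, 18 were found and 16 tested, with 0 called and 0 at an unadjusted p below 0.05 by limma. LARP1, which binds TOP messages, had 3291, 3592 and 3535 in NC and 3440, 3093 and 3255 in KD libraries (log2 fold change -0.09, standard error 0.09). Of 42 translation initiation factors 37 were tested, with 0 called by limma and a median log2 fold change of 0.02. At an unadjusted p below 0.05 from limma there were 2 (1 in each direction), against 4.61% of all tested genes. RACK1 and RPL36AL, subunit proteins outside the naming rule, overlapped between the groups, with means of 11.2 and 30.6 in NC and 9.93 and 35.0 in KD.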
